A study of Mus musculus with 2 samples.

Results

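Gal3st1, its 3 paralogs and 6 further genes that make or break down seminolipid, the sulfated ether glycolipid of male germ cells, were followed in mouse embryonic stem (ES) cells with and without induced CTCFL. The 10 genes were listed by name, and a probe set was taken where the array platform annotation gave it a single gene symbol equal to one of the 10. This found 9 probe sets for 9 of the 10 genes, out of 35557 probe sets and 19938 named genes on the array. Gal3st2 was the exception, because both of its probe sets also carry the symbols of its close copies Gal3st2b and Gal3st2c.

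CTCFL is the germ cell paralog of CTCF, the zinc finger protein that organizes chromatin loops. Transcripts were read on 2 arrays of the type Affymetrix Mouse Gene 1.0 ST, which cover a transcript with probes along its length. CTCFL_V5_GFP transgenic ES cells given doxycycline for 3 days and sorted on GFP were hybridized to the induced array. Cells of the same transgenic line without doxycycline, and unsorted, went to the non-induced array. According to the methods of the study, both carried the doxycycline-responsive activator rtTA at ROSA26 and a TRE-driven transgene for mouse CTCFL fused to V5 and GFP, and cells were selected with G418. Both were grown in medium with LIF on gelatin. How many clones stood behind each array is not given in the sources used here. With 1 array per group there were no replicates and no test was possible, and doxycycline, sorting and CTCFL cannot be told apart. All values below are deposited log2 signals and all differences are induced minus non-induced.

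Seminolipid synthesis begins in peroxisomes. There GNPAT loads a fatty acid onto a glycerol precursor, FAR1 supplies a fatty alcohol from the peroxisome membrane, and AGPS swaps the fatty acid for that alcohol, which creates the ether bond. The lipid then receives galactose from UGT8A in the endoplasmic reticulum and, in the Golgi apparatus, sulfate from GAL3ST1. Lysosomal arylsulfatase A, encoded by Arsa, removes the sulfate with the help of saposin B, a fragment of the prosaposin encoded by Psap. The same galactosyl- and sulfotransferase also make sulfatide, a myelin lipid, and male mice without either enzyme are infertile because spermatocytes arrest.

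In the induced array the sulfotransferase gene Gal3st1 and both lysosomal genes had the higher signal, and the ether lipid genes Agps and Far1 the lower. Gal3st1 was higher by 0.65, Arsa by 0.55 and Psap by 0.51, while Far1 was lower by 0.55 and Agps by 0.51 on the log2 scale. None of these reached the size of log2 1 used to call a gene. The number of the 9 genes called higher was 0, against 0.256% of all 19938 genes, and the number called lower was 0, against 0.958%. A call required a difference of log2 1 and a higher value at or above a floor, the median of all gene values (6.36). At a size of log2 0.58, or 1.5-fold, with the same floor the counts were again 0 and 0, against 2.85% and 4.53% of all genes. Without a floor 1 gene, Gal3st1, was higher by this size and 0 were lower, against 6.82% and 7.4%.

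The signs were mixed over the 9 genes. 5 lay above 0 and 4 below, which is 55.6% above 0 where all genes had 51.4%. Their median difference was 0.15, against 0.01 over all genes. The middle 50% of all genes lay between -0.24 and 0.26.

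**Figure D1:**
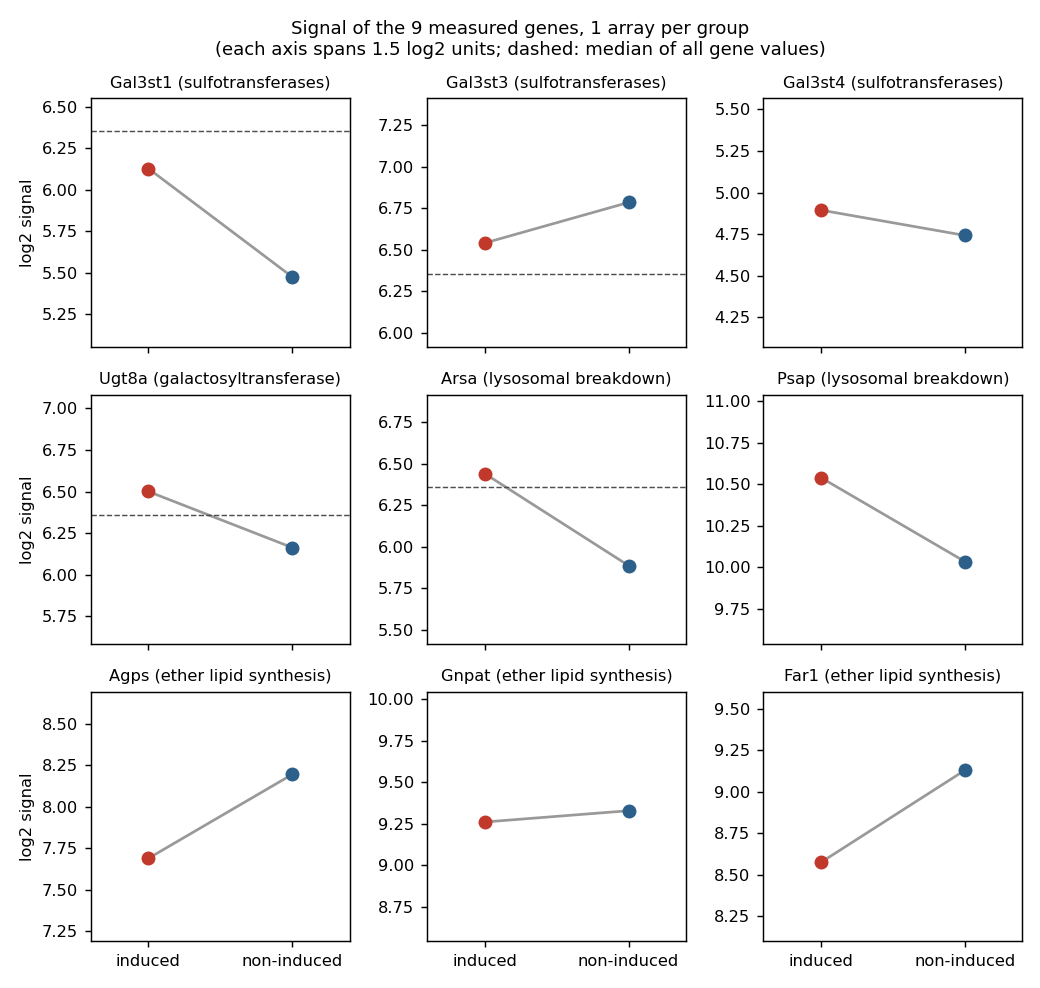
Log2 signal of each of the 9 genes in the induced (red, left) and non-induced (blue, right) array, 1 point per array. Every panel spans 1.5 log2 units around the mean of its gene, and the floor (6.36) is dashed only in panels whose span holds it. Gal3st1, Arsa and Psap slope down from induced to non-induced, Agps and Far1 slope up, and Gnpat is nearly level (9.26 and 9.33).

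The array was first checked against its labels. Ctcfl had 9.44 induced and 5.99 non-induced, higher by 3.45, so the induced array carries the transcript its label names. Its probe set cannot separate transgene from endogenous gene. Of 10 ES cell markers, including Pou5f1 and Sox2, 10 were at or above the floor in both arrays. Their median difference was -0.07, or 0.03 after quantile normalization, with Zfp42 at -0.46, Klf4 at 0.24 and Nanog at -0.22. The middle 95% of all genes differed by -0.86 to 0.77, a range that held each of the 9 genes.

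Gal3st1 encodes the Golgi enzyme that adds the sulfate to seminolipid. It had 6.13 induced and 5.48 non-induced, by its single probe set (10373826, gene on chromosome 11). The induced value was higher by 0.65, or 1.57-fold, and 95.4% of all genes had a smaller or more negative difference. Both values were below the floor, where signals of weakly transcribed genes and of background overlap. Of the 500 genes nearest in mean signal, 91.2% had a lower difference than Gal3st1, and the middle 95% of them ran from -0.76 to 0.87. The probe set summarizes the gene as a whole, so the testis form of the transcript, for which the study had its own primers, is not resolved.

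The RefSeq annotation of GRCm38.p6 gives 3 starts for Gal3st1, of which the first pair lie 15 bases apart and the last 6297 bases downstream of the first. The 250 bases before the first and the last start are shown because CTCFL binds DNA and the probe set does not tell which start was used. CpG dinucleotides are in capitals. Both are on the plus strand, read 5′ to 3′, at chr11:3983386-3983635 and chr11:3989683-3989932 of GRCm38.p6.
Gal3st1 first start: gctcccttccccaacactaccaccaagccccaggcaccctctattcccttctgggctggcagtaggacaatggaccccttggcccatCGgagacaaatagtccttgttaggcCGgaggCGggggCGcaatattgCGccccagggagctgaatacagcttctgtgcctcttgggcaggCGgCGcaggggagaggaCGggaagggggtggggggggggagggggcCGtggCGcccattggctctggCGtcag
Gal3st1 last start: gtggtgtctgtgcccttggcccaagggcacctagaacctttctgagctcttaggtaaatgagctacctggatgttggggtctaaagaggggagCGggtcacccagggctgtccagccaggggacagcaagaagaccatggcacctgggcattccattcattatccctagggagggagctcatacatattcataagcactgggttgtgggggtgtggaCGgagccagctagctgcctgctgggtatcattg

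The sequence before the first start held 11 CpG and 65.6% G or C, and that before the last start 2 CpG and 56.0% G or C. The median of 32536 such promoter windows was 6 CpG and 52.4%. Of all windows 64.2% had fewer CpG than the first and 18.6% fewer than the last. Binding of CTCFL was not measured on the arrays. By its ChIP-sequencing of ES cells, the study lists Gal3st1 as bound by CTCFL and not by CTCF. It also reported more Gal3st1 transcript by RT-PCR in induced, GFP-sorted ES cells than in non-induced ones.

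The difference of Gal3st1 was set beside that of its chromosomal neighbours, taken as the 3 nearest measured protein-coding genes on each side. Tcn2, which encodes the vitamin B12 carrier transcobalamin, had 7.92 induced and 7.40 non-induced, a difference of 0.52. Mtfp1, a mitochondrial fission gene, had 7.46 and 7.04 in the same order, a difference of 0.42. The genes next to Gal3st1 were below 0. Pes1, a ribosome assembly gene and the nearest upstream, had 9.58 induced and 9.84 non-induced (-0.26). The lipid transfer genes Sec14l4 and Sec14l3, the nearest downstream, differed by -0.11 and -0.20, and Slc35e4, a transporter gene, by 0.11. Gal3st1 had the widest difference of the 7 genes, and the nearest gene on either side had the opposite sign.

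**Figure D2:**
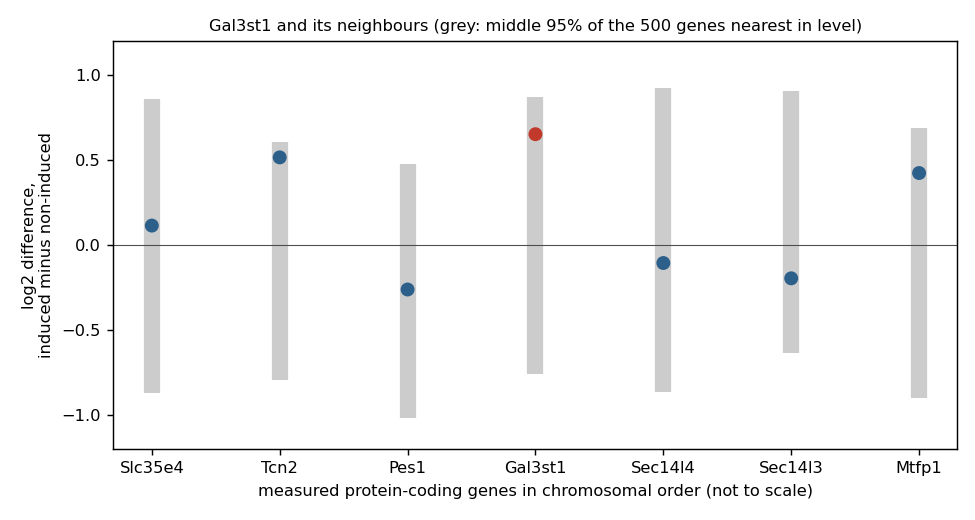
Log2 difference, induced minus non-induced, of Gal3st1 (red) and of 3 measured protein-coding genes on each side in chromosomal order (blue), with the middle 95% of the 500 genes nearest in mean signal to each (grey bars). All 7 points lie within their bars, and Pes1 (-0.26) and Sec14l4 (-0.11), which flank Gal3st1 (0.65), lie below 0.

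The paralogs of Gal3st1 transfer sulfate to galactose on the sugar chains of glycoproteins. Gal3st3 had 6.54 induced and 6.79 non-induced, both above the floor, a difference of -0.24. Gal3st4 had 4.89 and 4.74 in the same order, both below the floor, a difference of 0.15. So of the 3 sulfotransferase genes measured, Gal3st1 differed most and Gal3st3 had the opposite sign. Gal3st2c, a copy of Gal3st2 with a probe set of its own and not one of the 10 genes, had 6.52 induced and 6.87 non-induced (-0.35).

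Ugt8a encodes the galactosyltransferase that acts just before GAL3ST1. It had 6.50 induced and 6.16 non-induced, a difference of 0.34, so the induced value was above the floor and the non-induced value below it. Of all genes 81.2% had a lower difference, and of the 500 nearest in signal 74.6%. The genes of both enzymes that make the sulfogalactosyl head group were higher in the induced array, Gal3st1 by 0.65 and Ugt8a by 0.34. Gal3st1 was below the floor in both arrays and Ugt8a in the non-induced array. Each difference lay within the middle 95% of the 500 genes nearest in signal (-0.76 to 0.87 for Gal3st1, -0.66 to 0.79 for Ugt8a).

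The sulfate donor of GAL3ST1 is PAPS, made in the cytosol by PAPSS1 and PAPSS2 and carried into the Golgi apparatus by SLC35B2 and SLC35B3. Of 11 genes for sulfate uptake and this donor 4 were above 0 and 7 below, with a median of -0.03. The number called at log2 1 was 0 in either direction, against 0.256% of all genes called higher and 0.958% lower. Papss1 was level at 6.92 in both arrays (-0.01). Slc35b3 had 6.45 induced and 7.01 non-induced (-0.56), whereas Slc13a4, a sodium-coupled sulfate transporter gene, had 6.36 and 5.81 in the same order (0.55). Slc26a2, the broadly expressed sulfate transporter gene, differed by 0.24.

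Both lysosomal genes among the 9 were higher in the induced array. Arsa had 6.44 induced and 5.89 non-induced, a difference of 0.55 or 1.47-fold, above the floor only in the induced array. Psap, which besides saposin B gives the saposins of several other lipid hydrolases, had 10.54 and 10.03 in the same order, a difference of 0.51 or 1.42-fold. Of the 500 genes nearest to Psap in mean signal, 98.6% had a lower difference, and their middle 95% ran from -1.10 to 0.45, so Psap lay above that range. Psap was the 1 gene of the 9 outside the range of its 500 nearest genes. A middle 95% leaves some genes out at every signal level, and the share of all genes outside theirs was not computed. For Arsa 90.4% of the nearest genes had a lower difference, and it lay within their range (-0.66 to 0.79).

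**Figure D3:**
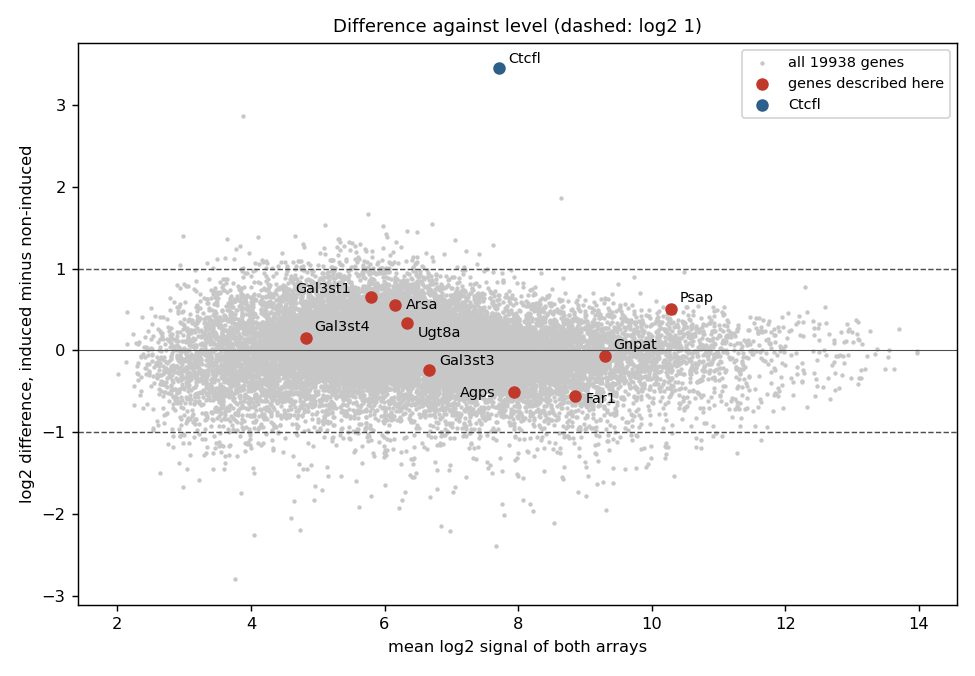
Induced minus non-induced log2 difference (vertical) plotted over the average log2 signal of a gene (horizontal), for all genes (grey), the 9 genes (red) and Ctcfl (blue); dashed lines mark log2 1. All 9 genes lie between the dashed lines, and Psap (0.51) lies at the upper edge of the cloud at its signal level.

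Other genes of lysosomal glycolipid breakdown had a smaller median difference. Of 13 measured 9 were above 0 and 4 below, with a median of 0.11, and 0 were called at either size. Of all genes 51.4% were above 0. At log2 1, 0.256% of them were called higher and 0.958% lower, and at log2 0.58 with the floor 2.85% and 4.53%. Ctsd, which encodes the protease cathepsin D, had 10.44 induced and 9.91 non-induced (0.53), the highest difference of the list. Neu1, a sialidase gene, differed by 0.31 and Smpd1, which encodes acid sphingomyelinase, by 0.29. Galc, whose product removes the galactose once ARSA has taken the sulfate, had 5.85 induced and 5.89 non-induced (-0.04), and Sumf1, whose product activates sulfatases, differed by -0.07.

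The upstream sequence of Arsa is shown because lysosomal genes are known to share an E-box read by the transcription factor TFEB. The letters TCACGTG, searched on both strands, are in 3.16% of all windows of 250 bases. Of the 11 windows annotated for 8 of the 10 genes, 1 held them, that of Arsa, at -17 to -11 from the start. They are in capitals, in the 250 bases before the start on the minus strand of chr15:89477425-89477674 (GRCm38.p6). The windows of Psap did not hold them, and a match is a description of letters, not a site.
Arsa: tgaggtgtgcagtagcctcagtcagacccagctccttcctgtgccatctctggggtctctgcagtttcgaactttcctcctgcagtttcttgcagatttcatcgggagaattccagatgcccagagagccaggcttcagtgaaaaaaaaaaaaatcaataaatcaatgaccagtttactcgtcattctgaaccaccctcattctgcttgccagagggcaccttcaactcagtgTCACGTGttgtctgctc

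The peroxisomal genes that make the ether bond were below 0 as deposited, and all 3 were above the floor in both arrays. Far1 had 8.57 induced and 9.13 non-induced, a difference of -0.55 or 1.47-fold lower. Agps had 7.69 and 8.20 in the same order, a difference of -0.51 or 1.42-fold lower. Gnpat, whose product acts before AGPS, had 9.26 and 9.33, a difference of -0.07 that became 0.07 after quantile normalization and 0.03 after lowess. Of all genes, 8.24% had a lower difference than Far1 and 9.87% than Agps. Genes of similar signal also lay slightly below 0. The 500 genes nearest to Far1 had a median of -0.12, and 12.2% of them had a lower difference than Far1. For Agps this share was 14.4% and for Gnpat 53.6%.

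Of 8 further genes of ether lipid synthesis and breakdown 4 were above 0 and 4 below, and 0 were called at log2 1. Of all genes 0.256% were called higher and 0.958% lower at that size. At log2 0.58 with the floor 1, Tmem86a, was higher and 0 were lower, against 2.85% and 4.53% of all genes. Dhrs7b, whose product reduces the lipid made by AGPS, had 8.15 induced and 8.66 non-induced (-0.51), the lowest difference of the list. Cept1, which encodes a late phosphotransferase, differed by -0.19, and the related genes Chpt1 and Selenoi by -0.11 and 0.08. On the breakdown side, Agmo, which encodes the enzyme that cleaves the ether bond, differed by -0.28 below the floor. Tmem86a, related to the enzyme that cleaves lysoplasmalogens, had 7.19 and 6.58 in the same order (0.61). Of 13 peroxins, the proteins that build peroxisomes and import their enzymes, 7 were above 0 and 6 below, and 0 were called at log2 1. With the size of log2 0.58 and the floor, 1 peroxin was higher and 1 lower, against 2.85% and 4.53% of all genes. Pex2, a ubiquitin ligase gene of the import machinery, had 6.53 induced and 7.44 non-induced (-0.92), while the docking protein gene Pex14 had 7.98 and 7.27 (0.71) and Pex13 differed by -0.27. Pex7, the receptor gene for AGPS import, differed by -0.23.

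Sulfatide is made from ceramide by the same UGT8A and GAL3ST1. Of 21 genes for ceramide and the glycolipids made from it 10 were above 0 and 11 below, with 0 called at either size. Of all genes 0.256% were called higher and 0.958% lower at log2 1, and 2.85% and 4.53% at log2 0.58 with the floor. The differences of the 21 genes ran from -0.55 to 0.36. Sptlc1, a subunit gene of the first enzyme of sphingolipid synthesis, had 7.82 induced and 8.37 non-induced (-0.55). The sphingomyelin synthase gene Sgms1 differed by -0.30 and the ceramide synthase gene Cers2 by 0.25. Fa2h, which hydroxylates the fatty acid of myelin galactolipids, differed by -0.13 and was below the floor in both arrays.

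**Figure D4:**
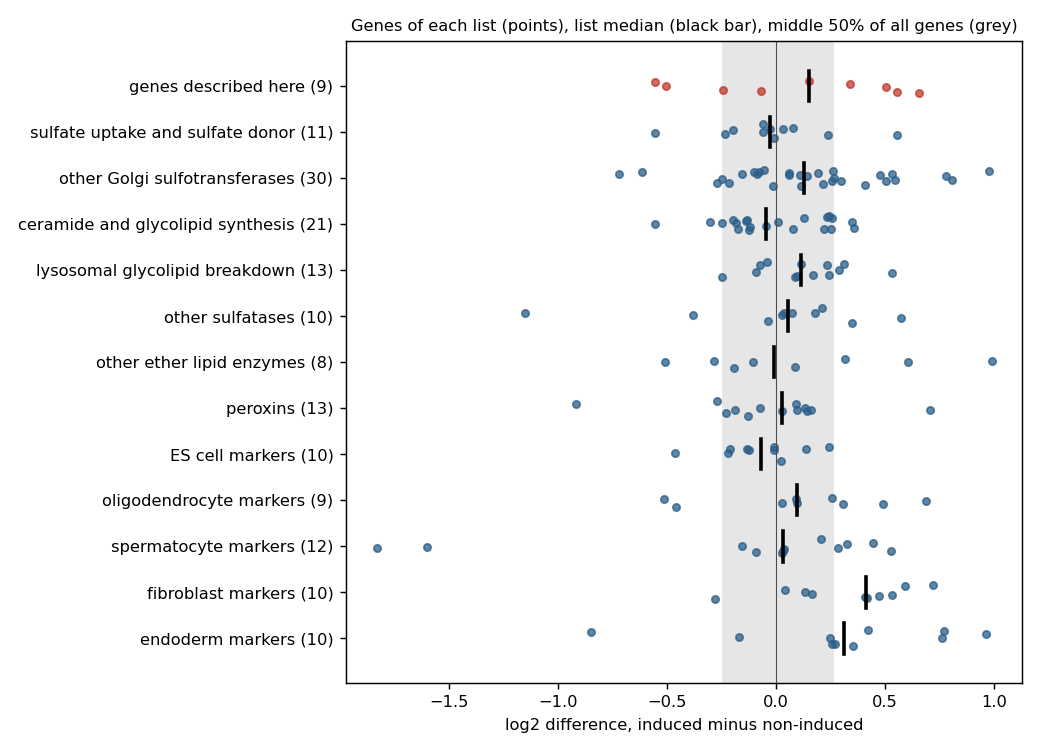
Log2 difference, induced minus non-induced, of the genes of each list (points, number measured in brackets), with the list median (black bar) and the middle 50% of all genes (grey band). The 9 genes (red) spread from -0.55 to 0.65 around a median of 0.15, and the highest list medians are those of the fibroblast (0.41) and endoderm markers (0.31).

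Markers of other cells were read beside these values, since in bulk RNA fewer cells of a type and less RNA per cell cannot be told apart. Spermatocytes are the cells that make seminolipid. Of 12 spermatocyte markers 3 reached the floor in an array, and Hspa2 alone was above it in both. Sycp3 had 5.35 induced and 7.18 non-induced (-1.83) and Sycp1 had 4.77 and 6.37 (-1.60), while the median of the list was 0.03 as deposited and -0.07 after centring. Zpbp, the next widest, differed by 0.52 below the floor. Of the 12 markers 2, Sycp1 and Sycp3, were called lower and 0 higher, against 0.958% and 0.256% of all genes. Both reached the floor only in the non-induced array, Sycp1 narrowly (6.37 against 6.36). Over the list 8 markers were above 0 and 4 below.

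Oligodendrocytes, which express Ugt8a and Gal3st1 for myelin, were covered by 9 measured markers with a median of 0.10. Mog had 6.60 induced and 5.91 non-induced (0.69) and Mbp 6.60 and 6.12 (0.49), whereas Cnp differed by -0.51. Of these markers 1, Mog, was higher by log2 0.58 with the floor and 0 were lower, against 2.85% and 4.53% of all genes. The level of the list, as the mean of its log2 values, was 6.47 induced and 6.36 non-induced.

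Most listed markers of fibroblasts and endoderm had a higher signal in the induced array. This is the direction of Gal3st1, Arsa and Psap and opposite to that of Agps and Far1. Of 10 fibroblast markers 5 reached the floor in an array and 9 were above 0, with a median of 0.41 and mean levels of 5.92 induced and 5.60 non-induced. Pdgfrb, below the floor in both arrays, differed by 0.72, Twist2 by 0.59 and Col3a1 by 0.53. Lum and Postn differed by 0.17 and 0.04 and Dcn by -0.28, all below the floor in both arrays. Of 10 endoderm markers 6 reached the floor and 8 were above 0, with a median of 0.31 and mean levels of 6.90 and 6.59 in the same order. Cited1 differed by 0.96, Apoe, a lipid carrier gene, by 0.77, Foxa2 by -0.85 and Ttr, below the floor, by -0.17. Apoe was bright in both arrays, at 12.68 induced and 11.91 non-induced. By log2 0.58 with the floor, 1 fibroblast marker was higher and 0 were lower, and 3 endoderm markers were higher and 1 lower. The shares over all genes were 2.85% and 4.53%. The part of fibroblasts and endoderm in the differences of the 9 genes was not tested.

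The values were recomputed under other ways of scaling the arrays. Gal3st1 stayed between 0.41 and 0.65, Arsa between 0.38 and 0.55 and Psap between 0.41 and 0.63. Far1 stayed between -0.65 and -0.42 and Agps between -0.60 and -0.39. Ugt8a ran from 0.23 to 0.34, Gal3st4 from 0.05 to 0.15 and Gal3st3 from -0.34 to -0.19. Gnpat alone passed 0, at -0.17 to 0.07. Over all genes 51 were called higher and 191 lower as deposited, against 25 and 268 after centring of each array and 10 and 108 with a constant of 32 on the linear scale. Higher calls thus made up 21.1% as deposited, 8.53% after centring and 8.47% with the constant. The number of the 9 genes called was 0 in each of these settings.

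**Figure D5:**
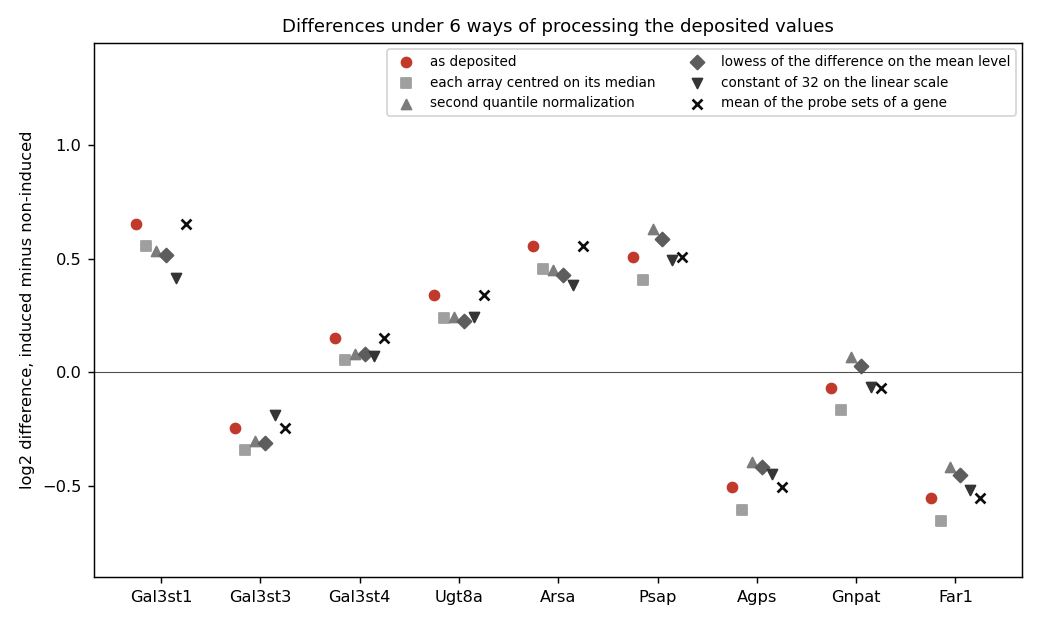
Induced minus non-induced log2 differences for each of the 9 genes as deposited (red circles) and under 5 other ways of processing (grey and black symbols). Gnpat alone has points on both sides of 0, and Gal3st1 is highest as deposited (0.65) and lowest with a constant on the linear scale (0.41).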

How the data were processed

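RNA of 1 induced and 1 non-induced ES cell culture (300 ng each) was labelled with biotin and hybridized by the authors. The authors made the deposited log2 values with RMA, which corrects background, normalizes quantiles and summarizes probes per set. The values ran from 1.36 to 14.5. Software versions and the build of the array annotation: not given in the sources used here. RMA compresses differences of dim genes, and the number of arrays limits the precision.

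Of 35557 probe sets, 21789 had 1 symbol in the platform annotation, 1621 several and 12147 none. 21698 were matched by gene identifier to RefSeq (GRCm38.p6) for current symbols, giving 19938 genes. Where a gene had several probe sets (999 genes), the one with the highest mean was used; each of the 9 genes had 1. The 9 genes, 12 lists (168 genes, 157 measured) and the motif were chosen with earlier results of these data known. Named were all members, up to 3 genes per list with the widest difference at or above the floor (any level for markers), 3 measured neighbours of Gal3st1 on each side, and Ctcfl. Papss1, Chpt1, Selenoi, Agmo, Galc, Sumf1, Pex7, Fa2h, Hspa2, Pou5f1, Sox2, Gal3st2c and the genes named below the floor in the closing section were named after their values were seen. The same holds for Dcn, Lum, Postn and Ttr.

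Alternatives were centring on the median, a second quantile normalization, lowess on mean signal (fraction 0.3), a constant of 32 on the linear scale, the mean of probe sets, other sizes and other floors. Steps were tested on simulated data. Promoter sequences are from RefSeq (GRCm38.p6), cut to 250 bases before the start. The work ran in Python 3.11.15 with statsmodels 0.14.6, pandas 2.3.3, numpy 2.4.6, matplotlib 3.10.9 and scipy 1.17.1.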

Additional observations from a re-analysis of the deposited data

Results flagged for a closer look

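The probe sets of Gal3st2 entered no comparison because they carry 3 symbols, those of Gal3st2 and its copies Gal3st2b and Gal3st2c. One of them (10348896) had 4.33 induced and 3.99 non-induced, higher by 0.34. The other (10348902) had 4.13 and 4.19 in the same order, a difference of -0.06. All 4 values lie below the median of all gene values (6.36), and with 1 array per group the difference was not tested.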

How the results depend on the processing

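Under the alternatives, 43 of 45 recomputed differences of the 9 genes kept their sign and moved by less than 0.25. The size of 0.25 is 0.5 of the interquartile range over all genes and stood in for the spread that replicates would give. Part of this count was fixed in advance. Each of the 9 genes had 1 probe set, so the mean of probe sets repeated the deposited values. The constant on the linear scale cannot change a sign, and centring moved every gene by the same amount, less than 0.25. Gnpat, at -0.07 as deposited, was at 0.0656 after quantile normalization and 0.0259 after lowess. The median of the 9 genes kept its sign. At log2 1 with either floor or none, 0 of the 9 were called in either direction. The widest difference as deposited was 0.65, so no choice of floor could change that count. At log2 0.58 with the floor 0 were called, and without a floor 1, Gal3st1, was higher. Of 72 recomputed list medians 13 changed sign, mostly close to 0. After centring the medians were -0.00223 for oligodendrocyte markers, -0.0661 for spermatocyte markers, -0.0695 for peroxins and -0.0444 for other sulfatases. After quantile normalization they were 0.0344 for ES cell markers, 0.0474 for other ether lipid enzymes and 0.0646 for ceramide and glycolipid synthesis, and after lowess 0.0151, 0.0151 and 0.0382 for these and -0.00493 for spermatocyte markers. With the constant the other ether lipid enzymes were at 0.00243. Over the spermatocyte markers at or above the floor the median was -1.60, as this leaves 3 genes. Over all genes 51 were higher and 191 lower by log2 1 as deposited, 25 and 268 after centring and 10 and 108 with the constant. The cause of these shifts was not tested. Gal3st1 and Gal3st4 were below the floor in both arrays, where dim signal limits what the differences can show.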

Other observations

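The other Golgi sulfotransferases, which sulfate sugar chains or, for the TPST enzymes, protein tyrosines and draw on the same donor as GAL3ST1, went both ways. Of 30 measured 19 were above 0 and 11 below, with a median of 0.13 against 0.01 over all genes. At log2 1, 0 of the 30 were called in either direction, against 0.256% of all genes higher and 0.958% lower. With the size of log2 0.58 and the floor, 1 of the 30 was higher and 0 were lower, against 2.85% and 4.53% of all genes. Chst12, a chondroitin sulfotransferase gene, had 7.74 induced and 6.93 non-induced (0.81). Tpst2, which encodes a protein tyrosine sulfotransferase, had 8.11 and 7.56 in the same order (0.55), and Hs6st3, a heparan sulfate gene, 6.36 and 5.83 (0.53). Below the floor, Chst15 differed by 0.97 and Chst7 by 0.78, and Hs3st1 by -0.72 and Ndst4 by -0.61.

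Of 10 further sulfatases 7 were above 0 and 3 below, with a median of 0.05. Sgsh, which removes sulfate from heparan sulfate in lysosomes, had 6.80 induced and 6.23 non-induced (0.57), the highest difference of the list. Galns, another lysosomal sulfatase gene, differed by 0.35. Sulf1, whose product trims heparan sulfate at the cell surface, differed by -0.38. Arsk had 4.69 and 5.84 in the same order (-1.15), the widest of the list, with both values below the floor. Below the floor, Tmem86b, which encodes lysoplasmalogenase, had 5.71 induced and 4.72 non-induced (0.99).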
